A study of Drosophila melanogaster with 5 samples.

Results

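The expression table of the hs-Bam time course listed 17528 features, of which 14819 were genes and 2600 were single insertions of transposable elements, each one named copy at one place in the genome. The insertions were chosen by the kind of their FlyBase identifier (FBti, the prefix for an insertion) and by no measured value, and the name before the braces sorted them into 122 families. A further 109 transposon features carried identifiers of another kind and were not members. All 2600 insertions were found in the Ensembl annotation of the assembly BDGP6.54, which gave their positions, whereas the authors counted on BDGP6.46 and their table held no coordinates. No name was exactly R1 or R2. The R1-type members were 21 insertions named R1A1 and 2 named R1-2, and the features named R1 and R2 were among the 109 others.

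RNA was taken from about 100 pairs of testes per library, dissected whole and with the seminal vesicle attached, of males of the genotype hs-Bam; bam-/-, and polyA RNA was sequenced. The 5 groups shared the bam mutation and the transgene, in which a heat shock promoter drives Bam, and were no HS (no heat shock) and 8, 16, 24 and 32 h PHS (post heat shock), with 1 library each. The heat shock was 30 min at 37 °C given to mid- and late-stage pupae, followed by culture at 25 °C. Testes of bam mutants are filled with spermatogonia that go on dividing and do not become spermatocytes, and the pulse of Bam lets these cells differentiate, so the series asked how transcripts change on that path. The libraries analysed here held no heat-shocked males without hs-Bam, so the effects of heat and of Bam cannot be told apart. The tissue also held somatic cells, and fewer cells of a type and less RNA per cell cannot be told apart in such libraries.

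The libraries held 10356663 to 28766676 reads on features, with the fewest in no HS. The transcripts of bam, which are also made from the transgene, stood at 64.8 CPM (reads scaled to a normalized library of about 1000000) in no HS, 128 at 8 h PHS and 60.5 at 32 h PHS. The summed level of 8 spermatocyte genes was 48.6 to 58.4 CPM in the first 3 libraries, 254 CPM at 24 h PHS and 814 CPM at 32 h PHS. Most of the last sum was Rbp4 (400), fest (289) and kmg (73.9), and 4 of the 8 were past 2-fold higher in CPM + 1 there. From no HS to 32 h PHS aly went from 26.3 to 28.7 CPM and bol from 24.4 to 19.2, and can and sa stayed under 1 CPM. Markers of other tissues were present in every library, with 899 to 1176 CPM over 5 muscle genes, 151 to 191 CPM over 5 genes of cyst cells and somatic gonad, 3.47 to 6.23 CPM over 4 fat body genes and 0.299 to 2.10 CPM over 5 accessory gland genes.

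Transposable elements are mobile DNA. LTR elements (such as gypsy, roo and copia) and non-LTR elements (such as Doc, jockey and R1) move through an RNA copy, elements with terminal inverted repeats (such as 1360 and hobo) move as DNA, and INE-1 is an old and very numerous Helitron-like element of the fly genome. In the fly germ line small RNAs called piRNAs, made from clusters of old insertions and bound by Piwi-family proteins, keep most families low. A family's total is usually measured by letting reads map to many copies, but here pairs were kept only if they mapped properly with a quality of 10 or more, which in STAR output leaves essentially the reads with 1 place in the genome. Each value is therefore what could be assigned to that single copy, and a copy with few or no reads is not shown to be silent. No nucleotide sequence is printed, since no genome or element sequence was at hand.

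Few reads fell on single insertions. They took 3656 reads in no HS and 11463, 8219, 11248 and 8712 in the later libraries. As a share of the library this was 0.0353% in no HS (95% Clopper-Pearson interval 0.0342% to 0.0365%), 0.0432% at 8 h PHS (0.0424% to 0.0440%), 0.0383% at 16 h PHS, 0.0391% at 24 h PHS and 0.0377% at 32 h PHS (0.0369% to 0.0385%). The intervals cover counting error only, since PCR copies were not told apart and there were no replicate libraries. The share was lowest in no HS and highest at 8 h PHS, and those intervals did not overlap.

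Most insertions were barely covered. The 2600 insertions were those with at least 1 read in some library, out of 5734 in the annotation (45.3%), and their median total was 3 reads over the 5 libraries. For 724 of them (27.9%) the total was a single read, and for 1983 (76.3%) it was under 10. At the other end 229 insertions had at least 30 reads and held 72.5% of the 43298 reads, 66 had at least 100, and the top 10 alone held 24.9%. Listed insertions were longer than those without a read (median 652.5 against 230 bases), and those with at least 100 reads were longer still (2540 bases). A mean of 1 CPM was reached by 57 insertions and a mean of 10 CPM by 4.

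**Figure D1:**
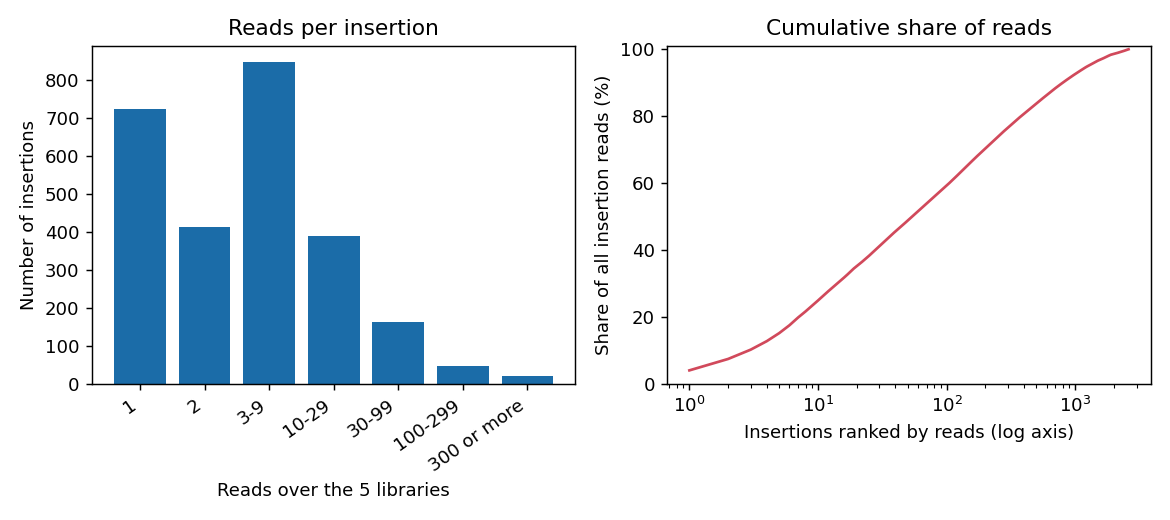
Reads per single insertion. Left, the number of insertions (bars) by their total of reads over the 5 libraries. Right, the cumulative share of all insertion reads in percent against the rank of the insertion by reads, on a log axis. The first bar holds the 724 insertions with a single read, and the 10 insertions with the most reads hold 24.9% of the reads.

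Detection followed depth. An insertion had at least 1 read in 822 cases in no HS and in 1414 to 1676 cases in the later libraries, but after each library was thinned to the depth of no HS the expected numbers were 822, 978, 985, 1023 and 967. Thus the later libraries, at equal depth, would still have shown 967 to 1023 insertions against 822. Reads were found in all 5 libraries for 464 insertions and in a single library for 836. With 0 reads, a library allowed a level of up to 0.292 CPM in no HS and 0.105 to 0.142 CPM in the others, which is 3 reads.

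The best-covered single copies were of a few kinds. The 10 with the highest mean level were HeT-A{}6262, HeT-A{}6268, HeT-A{}4795 and HeT-A{}6278 of the telomeric family HeT-A, the LTR insertions 3S18{}853, 3S18{}177 and gypsy8{}5168, the non-LTR insertions G{}431 and Doc{}CHKov1[Doc1420], and the hobo copy H{}84. The highest mean was 15.4 CPM. By family, the largest sums were those of HeT-A (7176 reads on 21 insertions), INE-1 (4749 on 823), 3S18 (2854 on 15), gypsy8 (1881 on 35) and Rt1b (1663 on 38). HeT-A thus had the most reads of the 122 families with 21 of the 2600 insertions, whereas INE-1, with the most insertions, had 21 with at least 30 reads.

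Each later library was compared with no HS, so the 4 comparisons share that library and its counting error. With 1 library per time there is no test, and the text gives the ratio of CPM on the log2 scale with a 95% Clopper-Pearson interval that covers counting error only and compares libraries, not conditions. As a call of size, the study's own measure was used first, a difference of log2(CPM + 1) beyond 1 in either direction. Because that scale keeps a feature under 1 CPM from reaching 2-fold unless it ends well above 1 CPM, a second call used the ratio of CPM itself (above 2-fold or below its inverse) for features with at least 30 reads in the 2 libraries together.

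On the log2(CPM + 1) scale few insertions were past 2-fold. At 8 h PHS 1 of 2600 was higher, R1A1{}6563, beside 0.2% of all features, and 0 were lower beside 0.165%. At 16 h PHS 2 were higher, INE-1{}3381 and R1A1{}6563, beside 0.228%, and 1 was lower, HeT-A{}6274, beside 0.416%. At 24 h PHS 1 was higher, INE-1{}3381, beside 0.548%, and 4 were lower, HeT-A{}6274, HeT-A{}6532, gypsy8{}2354 and ninja-Dsim-like{}4473, beside 0.987%. At 32 h PHS 1 was higher, again INE-1{}3381, beside 1.13%, and 4 were lower, HeT-A{}6274, HeT-A{}6532, HeT-A{}4795 and 3S18{}853, beside 1.18%. The share of the insertions called was below the background in each of these 8 counts, on a scale that most of them are too low to pass.

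By the ratio of CPM, more of the covered insertions were past 2-fold. At 8 h PHS 11 of 75 were higher, beside 1.66% of all features with as many reads, and 1 was lower beside 0.718%. At 16 h PHS 7 of 60 were higher beside 1.74%, and 3 were lower beside 1.59%. At 24 h PHS 18 of 81 were higher beside 3.2%, and 4 were lower beside 2.89%. At 32 h PHS 9 of 64 were higher beside 3.79%, and 8 were lower beside 3.49%.

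These counts and their background differ in depth. The insertions past the minimum had a median of 52 to 61 reads in the 2 libraries, against 1175 to 1388 for all features, so that counting error alone moves their ratios far more, and an insertion low in no HS passed the minimum through the later library. Of the called insertions, the interval lay off equal levels for 10 of 12 at 8 h PHS, 8 of 10 at 16 h PHS, 18 of 22 at 24 h PHS and 16 of 17 at 32 h PHS. The whole interval lay past 2-fold for 1, 0, 3 and 2 of them. These insertions were picked by the same ratio, so the counts are a description. The median log2 ratio over the covered insertions was 0.32, 0.15, 0.37 and 0.20 at the 4 times, and over all features 0.02, 0.00, 0.02 and 0.01. The read minimum raises the insertion medians. The sum over all 2600 insertions, with no minimum, had log2 ratios of 0.27, 0.13, 0.15 and 0.05. Its interval at 32 h PHS (-0.01 to 0.10) included equal levels.

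The choice of the baseline mattered for the direction. With 8 h PHS as the baseline, an alternative chosen after seeing the data, 2, 6 and 4 insertions were higher past 2-fold at 16, 24 and 32 h PHS and 5, 12 and 17 were lower. The excess of higher over lower calls was thus a contrast with no HS, the shallowest library and the one without a heat shock. The share of all features past 2-fold against 8 h PHS was not computed, so the counts with that baseline have no background.

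**Figure D2:**
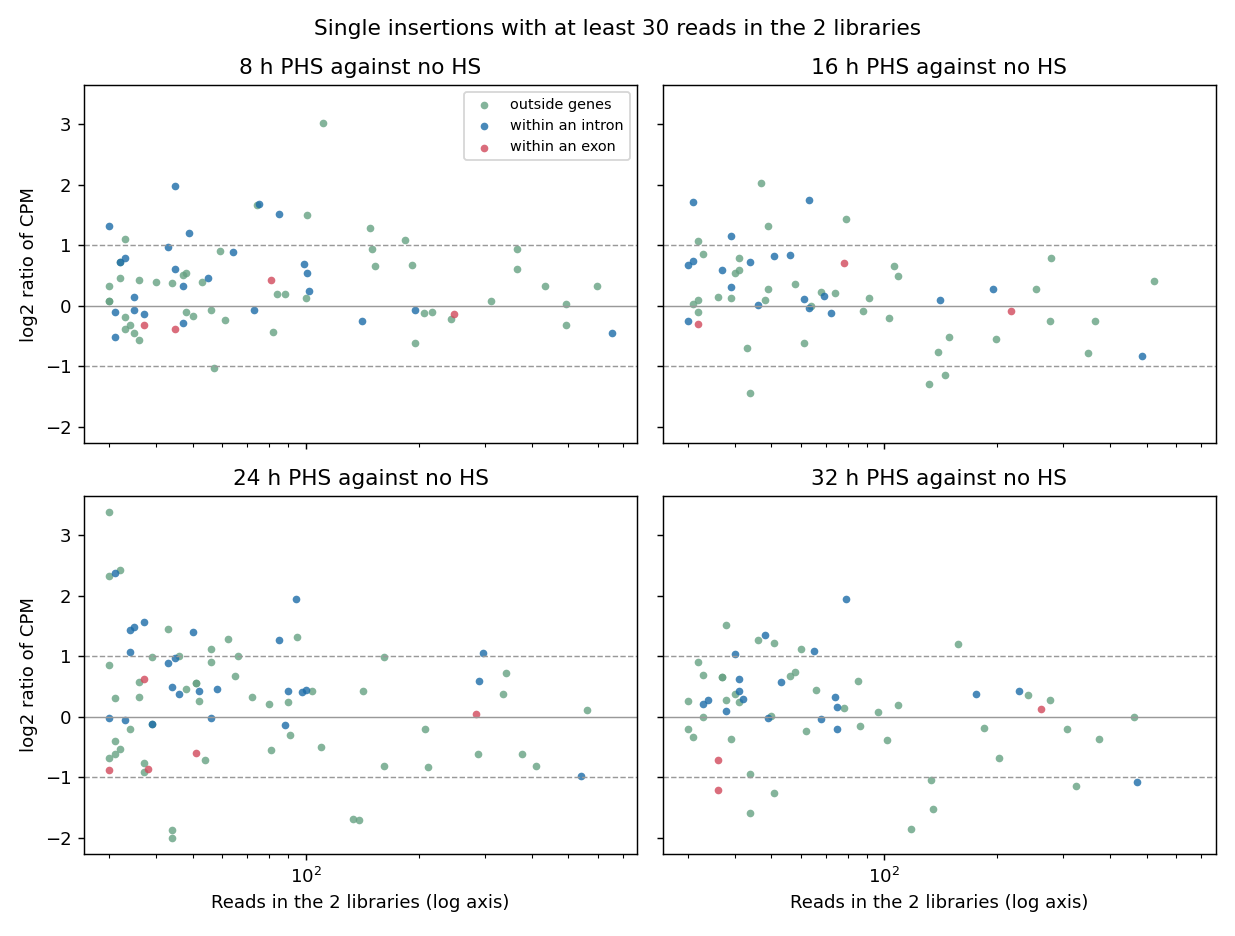
Change of single insertions with at least 30 reads in the 2 libraries compared. Each panel sets 1 later library against no HS, with the reads of both libraries on a log x axis, the log2 ratio of CPM on the y axis, a point per insertion coloured by its place in a gene, and dashed lines at 2-fold. Points spread more widely at few reads, and the lowest points at 32 h PHS are HeT-A{}6274 at -1.85, ninja-Dsim-like{}4473 at -1.60 and HeT-A{}6532 at -1.53.

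R1 and R2 are non-LTR elements that insert at fixed places within the ribosomal RNA genes of insects and are transcribed together with them. The R1A1 insertions summed to 9.44 CPM in no HS, 18.4 at 8 h PHS, 13.2 at 16 h PHS, 13.4 at 24 h PHS and 15.7 at 32 h PHS. All 4 later libraries were above no HS, with log2 ratios of 0.97 (interval 0.65 to 1.30) at 8 h PHS, 0.49, 0.51 and 0.73 (0.40 to 1.07) at 32 h PHS, none of which passed 2-fold. The 2 R1-2 insertions had 31 reads in all and gave no usable ratio.

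The R1A1 copies did not share 1 course. R1A1{}6563 is a copy of 5072 bases on the X chromosome (23223754 to 23228825), outside genes and 6614 bases from the annotated 28S rRNA pseudogene 28SrRNA-Psi:CR45859, in the stretch of X that holds rDNA units. It had 5, 106, 42, 38 and 33 reads, or 0.487 CPM in no HS, 3.96 at 8 h PHS, 1.99 at 16 h PHS, 1.33 at 24 h PHS and 1.39 at 32 h PHS. It was highest at 8 h PHS, at a log2 ratio of 3.02 (1.76 to 4.68), the largest ratio of any insertion past the read minimum at that time, and the no HS value rests on 5 reads.

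R1A1{}1124, a copy of 5298 bases on 3L (23112594 to 23117891), was likewise highest at 8 h PHS. Its levels were 2.73, 5.82, 3.84, 2.21 and 2.87 CPM, with a log2 ratio of 1.10 (0.51 to 1.73) at 8 h PHS and of 0.07 (-0.58 to 0.76) at 32 h PHS. R1A1{}2611, a fragment of 1733 bases on X (22371949 to 22373681), was instead highest at 32 h PHS, with 2.43, 4.67, 3.84, 4.80 and 5.57 CPM and a log2 ratio of 1.20 (0.57 to 1.87) there. The first of these was back near its no HS level by 24 h PHS and the second was not.

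The other 3 R1A1 insertions with at least 30 reads were shorter fragments. R1A1{}2631, near the last one on X, had 1.85, 1.57, 1.14, 2.14 and 2.79 CPM, and R1A1{}2417, in the same stretch, had 0.712 to 1.22 CPM. Their intervals at 32 h PHS included equal levels. R1A1{}3039, 3154 bases from Nipped-A on 2R, had 2 reads in no HS and 13 to 28 later, or 0.195, 0.485, 0.712, 0.981 and 1.01 CPM. The remaining 15 R1A1 insertions had 1 to 19 reads each over the 5 libraries, among them R1A1{}6566 and R1A1{}6567, near-complete copies of 4404 and 4789 bases with 2 reads and 1 read.

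The features named R1 and R2 are given for comparison, as they are not members. The R1 feature, on 3L, stood at 1.27, 6.98, 4.84, 3.22 and 2.41 CPM, with a log2 ratio of 2.46 (1.65 to 3.40) at 8 h PHS. The R2 feature, on X just beside R1A1{}6563, stood at 2.24, 5.67, 6.88, 5.50 and 5.36 CPM, with a log2 ratio of 1.34 (0.70 to 2.04) at 8 h PHS and of 1.26 (0.61 to 1.97) at 32 h PHS. R1, R1A1{}6563 and R1A1{}1124 were thus highest at 8 h PHS, while R2 was highest at 16 h PHS. Of the R1A1 copies with at least 30 reads, R1A1{}6563 lies in the stretch of X with rDNA units, and the others lie elsewhere on X, on 3L or on 2R. The non-mitochondrial rRNA features, which should be depleted by selection for polyA, summed to 22.1, 34.1, 93.3, 51.3 and 43.7 CPM. These were also lowest in no HS but highest at 16 h PHS, and the part of rRNA carry-over in the R1A1 values was not tested.

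**Figure D3:**
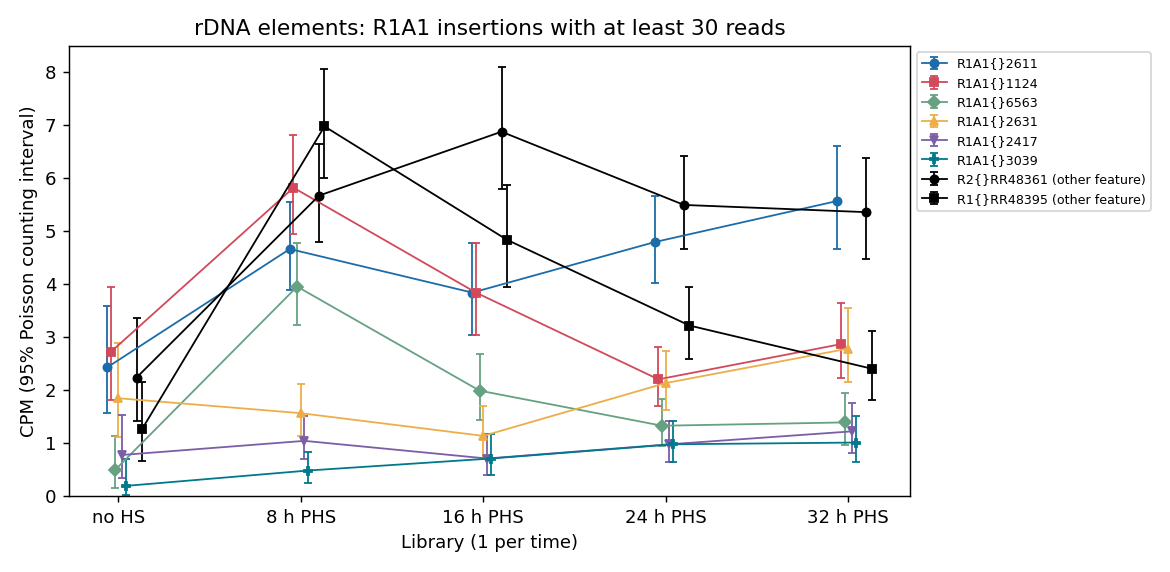
Levels of the 6 R1A1 insertions with at least 30 reads and of the features named R1 and R2. The x axis gives the 5 libraries and the y axis CPM, with a line per copy and bars for the 95% Poisson counting interval. R1A1{}6563 goes from 0.487 to 3.96 CPM between no HS and 8 h PHS and R1 from 1.27 to 6.98, while R1A1{}2611 is highest at 32 h PHS with 5.57.

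HeT-A, TART and TAHRE are the non-LTR elements that make up the chromosome ends of Drosophila and lengthen them in place of telomerase. HeT-A transcripts are known to be made in germ cells and dividing cells and to be held down by piRNAs. The HeT-A insertions summed to 80.6 CPM in no HS, 82.8 at 8 h PHS, 63.7 at 16 h PHS, 53.4 at 24 h PHS and 53.2 at 32 h PHS. The log2 ratio was 0.04 (-0.08 to 0.16) at 8 h PHS, -0.34 at 16 h PHS, -0.59 at 24 h PHS and -0.60 (-0.73 to -0.47) at 32 h PHS. HeT-A was thus level at 8 h PHS and lower in each of the other libraries, by less than 2-fold as a family.

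Single HeT-A copies differed widely in this. HeT-A{}6274, a copy of 5845 bases in the array on chromosome 4 (1289099 to 1294943), had 7.01, 4.59, 2.85, 2.17 and 1.94 CPM, with a log2 ratio of -1.85 (-2.42 to -1.30) at 32 h PHS. HeT-A{}6532, of 6084 bases at the end of 2R (25262498 to 25268581), had 7.30, 6.31, 3.32, 2.24 and 2.53 CPM and a log2 ratio of -1.53 (-2.04 to -1.02). HeT-A{}4795, of 4253 bases at the end of X (109756 to 114008), had 15.5, 12.5, 9.02, 8.82 and 6.97 CPM and a log2 ratio of -1.15 (-1.48 to -0.83). These copies lie on 3 chromosomes, and in each the no HS library was the highest of the 5.

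HeT-A{}6270, of 1974 bases and next to HeT-A{}6274, had 6.13 CPM in no HS and 2.96 at 32 h PHS, a log2 ratio of -1.05 (-1.57 to -0.54). By contrast HeT-A{}6262, the best-covered insertion of all with 1723 reads and 5799 bases long (chromosome 4, 1314342 to 1320140), had 13.6, 17.1, 18.1, 14.7 and 13.6 CPM. Its log2 ratio at 32 h PHS was -0.00 (-0.29 to 0.29), and its interval did not overlap that of HeT-A{}6274 in the same array. HeT-A{}6268, between them, was in the middle with 13.0, 13.4, 11.0, 8.51 and 10.1 CPM. HeT-A{}6278, of 3045 bases and further in, had 9.93, 12.4, 8.31, 6.48 and 8.61 CPM and a log2 ratio of -0.21 (-0.56 to 0.15) at 32 h PHS. Further in still, HeT-A{}4617 had 3.60, 5.79, 3.13, 2.56 and 2.74 CPM and HeT-A{}1685 had 2.04, 2.35, 2.04, 2.42 and 1.73 CPM, with intervals at 32 h PHS that included equal levels.

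Over the family, 10 HeT-A insertions had at least 30 reads in no HS and 32 h PHS together. All 10 had ratios below 1, from -1.85 to -0.00 on the log2 scale with a median of -0.38. The intervals of 5 lay below equal levels, and 4 were past 2-fold lower, beside 3.49% of all features with as many reads. All 10 were compared with the same no HS library, and the share of all features with such intervals was not computed. At 8 h PHS 5 of 10 were below 1. By place, the 13 copies on chromosome 4 summed to 56.1 CPM in no HS and 42.1 at 32 h PHS, those on X to 17.2 and 8.61, and the copy on 2R to 7.30 and 2.53. Leaving out HeT-A{}6262, the other HeT-A copies summed to 67.0 CPM in no HS and 39.7 at 32 h PHS, a log2 ratio of -0.76 (-0.90 to -0.61).

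Reads within the chromosome 4 array were uneven along it. HeT-A{}6265, of 5825 bases and next to HeT-A{}6262, had 9 reads in all 5 libraries, or a mean of 0.0153 CPM per kilobase against 2.66 for its neighbour. HeT-A{}6276 (5570 bases) had 25 reads and HeT-A{}6269 (4844 bases) had 7. Whether such copies are silent or only lack places where a read can be told from other copies was not tested.

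The other telomeric families were low. TART-A{}6261, 12349 bases long next to the HeT-A array on chromosome 4, had 1.36, 1.27, 1.66, 0.805 and 1.06 CPM, and TART-A as a whole 1.66 CPM in no HS and 1.22 at 32 h PHS, a log2 ratio of -0.43 (-1.35 to 0.52). TART-B had 9 reads and TART-C 3, and no insertion of the table was named TAHRE. No difference in TART was detectable at this depth.

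The marker lists of cell types were mixed beside this. The germ line list of 9 genes summed to 1776 CPM in no HS and 1350 at 32 h PHS, but its members went both ways (aub 318 and 381, piwi 150 and 44.1) and its median change of log2(CPM + 1) was 0.17, 0.01, 0.19 and -0.15 at the 4 times. The list for cyst cells and somatic gonad summed to 191 and 151 CPM, but its members also went both ways. zfh1 had 114 and 64.7 CPM and tj 18.4 and 17.2, while eya had 40.5 and 47.0, Wnt4 18.4 and 22.2 and upd1 0.292 and 0.422. The median change of that list was -0.28, -0.03, 0.18 and 0.14 at the 4 times. The muscle list summed to 899 and 1168 CPM. Of 30 genes of the piRNA pathway, 0 were higher at any time and 0, 1, 3 and 4 were lower past 2-fold on the log2(CPM + 1) scale at 8, 16, 24 and 32 h PHS, beside 0.165%, 0.416%, 0.987% and 1.18% of all features. The median change over the 30 was 0.06 at 8 h PHS and -0.16 at 32 h PHS. The 4 were piwi, which guides silencing in the nucleus, moon (14.2 CPM in no HS and 5.40 at 32 h PHS), which starts transcription at piRNA clusters, zuc (72.7 and 34.7), the nuclease that makes piRNAs, and shu (196 and 96.8), a co-chaperone needed to load them. Their part in the insertion values was not tested.

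**Figure D4:**
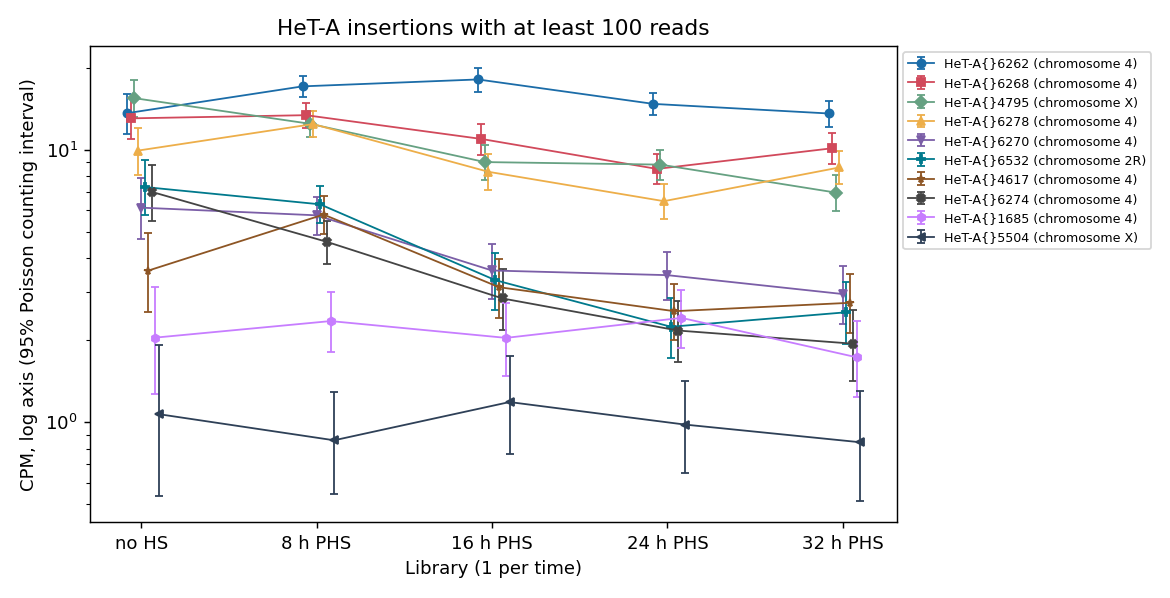
Levels of the 10 HeT-A insertions with at least 100 reads. The x axis gives the 5 libraries and the y axis CPM on a log axis, with a line per insertion and bars for the 95% Poisson counting interval. HeT-A{}6262 has 13.6 CPM both in no HS and at 32 h PHS, while HeT-A{}6274 goes from 7.01 to 1.94 and HeT-A{}6532 from 7.30 to 2.53.

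LTR insertions together were nearly level, with 111 CPM in no HS, 125 at 8 h PHS and 104 at 32 h PHS over 702 insertions. Within them 3S18, a family related to the Bel elements, was lower, at 33.1 CPM in no HS and 22.2 at 32 h PHS (log2 ratio -0.58, -0.78 to -0.38). Most of this lay in 3S18{}853, a copy of 6130 bases in an intron of GEFmeso on 2R (18575853 to 18581982), on the strand opposite to the gene. It had 21.9, 16.0, 12.3, 11.1 and 10.4 CPM, a log2 ratio of -1.08 (-1.34 to -0.81) at 32 h PHS, whereas GEFmeso had 47.4, 45.3, 56.4, 56.4 and 53.2 CPM. The insertion was lowest where its gene was above its no HS level, and the other well-covered copy, 3S18{}177 on X, was above no HS throughout, with 7.11, 10.9, 8.59, 9.21 and 8.57 CPM.

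The gypsy8 insertions summed to 20.9 CPM in no HS and 15.5 at 32 h PHS (log2 ratio -0.43, -0.68 to -0.18). In gypsy8{}5168, of 4934 bases on 2R outside genes, the levels were 8.08, 8.51, 5.51, 4.52 and 5.02 CPM. In gypsy8{}2354, on 2L near its centromeric end, they were 2.53, 2.76, 1.66, 0.630 and 1.06 CPM, with a log2 ratio of -2.01 (-2.96 to -1.08) at 24 h PHS. Both were near their no HS level at 8 h PHS and lower from 16 h PHS on. At 16 h PHS the interval of gypsy8{}2354 (-1.38 to 0.18) included equal levels. A short fragment of the family, gypsy8{}5153 in an intron of conu, had 1.07, 0.747, 0.902, 1.44 and 1.31 CPM, with intervals that included equal levels at every time.

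Other LTR insertions named by the rule for the largest changes were low. Max{}6542, which overlaps an exon of lncRNA:CR46481, had 1.75, 2.35, 2.85, 1.16 and 0.760 CPM. The fragment gypsy10{}5204 in an intron of CG17528 had 0.974, 2.80, 1.61, 1.26 and 1.31 CPM, and gypsy10{}3099, which is 5488 bases long, had 0.779, 0.672, 0.997, 1.89 and 1.82 CPM. The first copy was highest at 8 h PHS and the second at 24 h PHS, so that insertions of 1 family again differed. The diver2 family was level, with 11.1 CPM in no HS and 10.3 at 32 h PHS, as was roo at the ends of the course, with 4.28 and 4.81 CPM and 6.36 at 16 h PHS.

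The copia insertions were past 2-fold as a family in all 4 later libraries. They summed to 0.389, 2.31, 1.80, 2.49 and 3.04 CPM, or 4 reads in no HS and 38 to 72 later. The log2 ratio was 2.57 (1.14 to 4.49) at 8 h PHS and 2.97 (1.55 to 4.88) at 32 h PHS. A family call needed at least 30 reads in the 2 libraries together, which 61, 55, 67 and 57 families had at the 4 times. As in the other families past 2-fold higher, most of copia's reads came from the later library. It thus met the minimum through the library where it was high, and its intervals are a description. Of the 29 listed insertions, 1 had at least 30 reads in all, copia{}1467 on 3R, with 2, 22, 15, 26 and 21 reads. The higher sum was thus spread over many copies, 3 of which had a read in no HS.

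Families of low coverage made up the rest of the LTR calls. At 8 h PHS Circe (1.47) and GATE (1.12) were higher, at 16 h PHS GATE (1.24), at 24 h PHS Circe (1.11), invader1 (1.07), invader2 (1.94), rooA (1.29) and rover (1.80), and at 32 h PHS rooA (1.23), each given as a log2 ratio. The family 1731 was the only one past 2-fold lower, with 1.75 CPM in no HS, 0.854 at 16 h PHS and 0.876 at 24 h PHS, at log2 ratios of -1.04 and -1.001. Each of these rested on 3 to 18 reads in no HS, and the intervals of GATE, of rooA and of Circe at 24 h PHS included equal levels. The ninja-Dsim-like{}4473 insertion, whose class was not assigned, had 2.43, 1.19, 0.902, 0.665 and 0.802 CPM on 3L outside genes.

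Non-LTR insertions outside the rDNA and telomeric families summed to 82.6 CPM in no HS and 106, 103, 109 and 102 CPM later, above no HS by log2 ratios of 0.30 to 0.41. Rt1b was level, with 14.5 CPM in no HS, 14.5 at 8 h PHS and 15.5 at 32 h PHS (log2 ratio 0.10, -0.18 to 0.38). Cr1a was higher at 9.64, 13.4, 12.3, 15.0 and 14.7 CPM, and so was G at 8.96, 15.4, 14.5, 13.4 and 11.9 CPM. Doc stood between them, with 9.15 CPM in no HS and 11.9 at 32 h PHS (log2 ratio 0.37, 0.03 to 0.73).

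Doc{}CHKov1[Doc1420] is the copy that sits within an exon of CHKov1 on 3R (25324412 to 25328927) and is known in fly populations as an insertion that truncates that gene. It was level, with 7.21, 6.53, 6.79, 7.39 and 7.89 CPM and intervals that included equal levels at all 4 times. CHKov1 had 13.7, 12.9, 15.0, 16.6 and 14.1 CPM. In this pair neither the insertion nor the gene was past 2-fold.

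The G insertions were led by a stretch of 2L. G{}431 (20150149 to 20151414) had 5.94, 11.4, 10.3, 9.80 and 7.64 CPM, G2{}1609 next to it (20151484 to 20152719) had 1.17, 3.32, 3.18, 2.91 and 1.86 CPM, and G6{}4588 (20105899 to 20106460) had 0.779, 2.46, 1.95, 1.68 and 1.22 CPM. All of them were highest at 8 h PHS and came down toward no HS by 32 h PHS. The log2 ratios at 8 h PHS were 0.94 (0.54 to 1.36), 1.51 (0.63 to 2.51) and 1.66 (0.60 to 2.93).

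The 26 listed insertions of the surrounding 100 kb window of 2L, a place known to hold germ line piRNA clusters, summed to 13.7, 27.7, 22.9, 23.4 and 18.7 CPM. The window was looked at after its values were seen, as 1 of the 5 with the most insertion reads. Its log2 ratio was 1.01 (0.75 to 1.28) at 8 h PHS and 0.45 (0.17 to 0.73) at 32 h PHS. In the other windows with the most reads the ratio at 8 h PHS was 0.20 and 0.13 for the chromosome 4 windows that hold the HeT-A array, 0.32 for a window of X and -0.45 for the window of 2R with 3S18{}853. Copies of several families in the 2L window, among them X{}425 (402 reads) and BS{}426 (93 reads), were thus higher at 8 h PHS together.

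Low-coverage non-LTR families past 2-fold were all higher. BS was so at 8, 16 and 24 h PHS, with 0.876, 2.13, 1.80 and 2.24 CPM in the first 4 libraries and an interval that included equal levels at 16 h PHS (1.04, -0.03 to 2.28). Fw3 was at 24 h PHS, with 0.292 CPM in no HS and 1.23 there, Doc3 was at 16 h PHS, with 0.779 and 1.80 CPM, and the I element was at 32 h PHS, with 0.779 and 1.60 CPM, a log2 ratio of 1.04 (-0.08 to 2.35) that included equal levels.

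Single non-LTR copies with the largest ratios had few reads in no HS. Fw3{}4489 had 1 read in no HS and 13 to 29 later, jockey{}1009 had 2 and 9 to 30, Cr1a{}2833 in an intron of Gyf had 4 and 19 to 41, and G{}2518 had 7 and 23 to 39. In the other direction Rt1c{}5288 on 2L had 1.27, 0.859, 0.475, 0.315 and 0.338 CPM. It was named for its log2 ratio at 8 h PHS, -0.56 (-1.60 to 0.54), an interval that included equal levels. At 24 h PHS the log2 ratio was -2.01 (-3.41 to -0.67), on 13 and 9 reads, which is under the minimum of 30.

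Elements with terminal inverted repeats were above no HS in every later library, at 33.1, 44.3, 45.0, 49.7 and 43.8 CPM. The family 1360 had 7.89, 12.4, 13.2, 14.9 and 13.9 CPM on 210 insertions, a log2 ratio of 0.91 (0.57 to 1.27) at 24 h PHS and 0.82 (0.46 to 1.19) at 32 h PHS. The hobo family (H) had 10.8, 11.9, 12.5, 15.6 and 12.9 CPM. The higher level of 1360 was thus present at 4 times and short of 2-fold, and that of hobo had an interval above equal levels at 24 h PHS only.

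H{}84, a hobo copy of 2981 bases on X (8293303 to 8296283), lies in an intron of the acetylcholine receptor gene nAChRalpha3, on the strand opposite to it. It had 5.45, 5.19, 6.60, 8.16 and 7.30 CPM, and the gene had 3.31, 1.34, 1.14, 1.82 and 1.18 CPM. The insertion was higher at 24 h PHS (log2 ratio 0.58, 0.16 to 1.03), where the gene was below its no HS level. HB{}248, in an intron of Usp2, had 0.682 CPM in no HS and 1.26 to 1.73 later, and 1360{}5000, in an intron of conu, had 2 reads in no HS and 29 at 24 h PHS.

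Transib4 was past 2-fold higher in all 4 later libraries, at 0.487, 1.87, 1.71, 1.58 and 1.48 CPM, mostly from transib4{}3834 on 2R, with 4, 26, 21, 31 and 21 reads. Its log2 ratio was 1.94 (0.62 to 3.62) at 8 h PHS and 1.60 (0.24 to 3.31) at 32 h PHS. Tc1-2 was past 2-fold higher at 8 and 24 h PHS (1.54 and 1.11 on the log2 scale, the latter with an interval of -0.27 to 2.83), and mariner2 at 16 h PHS (1.06, 0.09 to 2.16). Both were below 2-fold again at 32 h PHS. No insertion of the table was named P-element.

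FB, the foldback element with long inverted repeats, was past 2-fold higher in all 4 later libraries. Its 43 insertions summed to 1.27, 3.62, 3.89, 4.31 and 3.97 CPM, or 13 reads in no HS and 82 to 123 later, with log2 ratios of 1.52 (0.68 to 2.48), 1.62, 1.77 and 1.65 (0.81 to 2.61). The best-covered copy, FB{}1532, a fragment of 462 bases in an intron on chromosome 4, had 0 reads in no HS, which allows up to 0.292 CPM, and 26, 15, 20 and 17 later. Only 8 of the 43 had a read in no HS.

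INE-1, the family with the most insertions, summed to 31.3, 42.0, 45.7, 48.1 and 40.8 CPM, with log2 ratios of 0.42, 0.55, 0.62 (0.45 to 0.80) and 0.38 (0.20 to 0.57). INE-1{}3381, of 1101 bases on chromosome 4 (1038710 to 1039810) in an intron of CaMKII and on the opposite strand, had 0.779, 2.501, 2.61, 3.01 and 3.00 CPM. It was low in no HS, on 8 reads, and nearly even in the later 4 libraries, with a log2 ratio of 1.94 (0.89 to 3.21) at 32 h PHS. CaMKII, the calcium-dependent kinase gene around it, had 37.0, 49.0, 45.7, 53.9 and 40.2 CPM. A second fragment in the same gene, INE-1{}3385, had 0.389, 0.635, 1.28, 1.16 and 0.591 CPM.

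**Figure D5:**
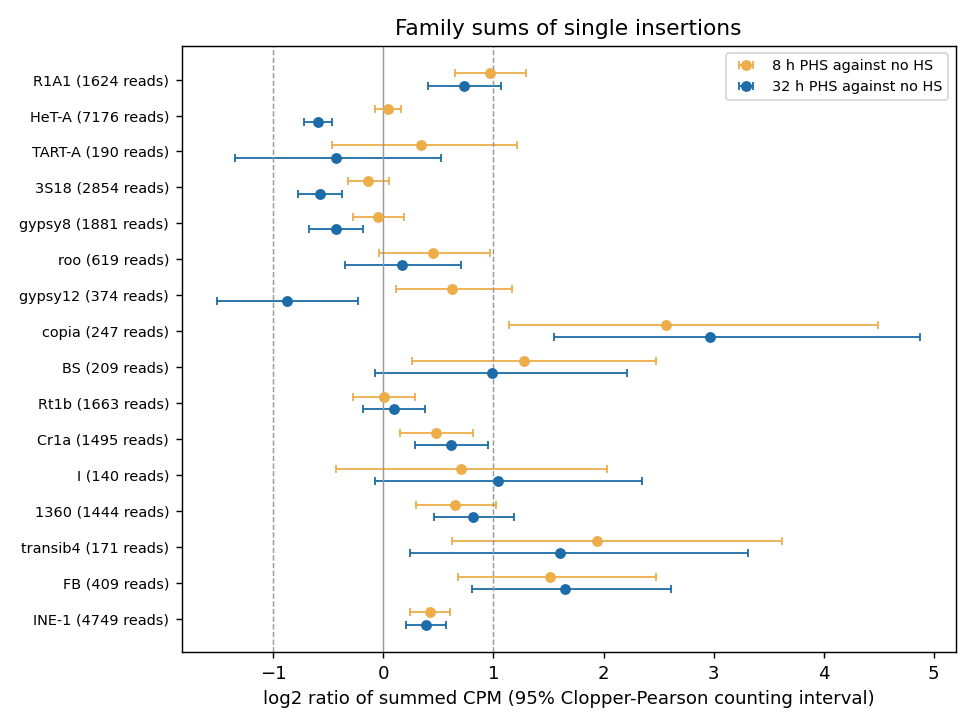
Change of the summed level of single insertions for 16 families at 8 and 32 h PHS against no HS. The x axis gives the log2 ratio of summed CPM, points are the ratios, bars are 95% Clopper-Pearson counting intervals, dashed lines mark 2-fold, and the reads of each family over the 5 libraries stand beside its name. HeT-A lies at -0.60 at 32 h PHS with a narrow interval and copia at 2.97 with a wide one, and the intervals of Rt1b include equal levels at both times.

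The sums differed by where the insertions lie. The 1324 listed insertions within introns summed to 122 CPM in no HS, 149, 148, 158 and 138 CPM later, with log2 ratios of 0.30, 0.28, 0.37 (0.28 to 0.47) and 0.18 (0.09 to 0.28). The 1152 outside genes summed to 216, 259, 221, 217 and 212 CPM, above no HS at 8 h PHS (0.26, 0.19 to 0.33) and level from 16 h PHS on. The 124 that overlapped an exon summed to 17.65 to 20.8 CPM and their intervals included equal levels at every time. Intronic copies thus were above no HS in all 4 libraries and those outside genes in 1. The sum outside genes holds nearly all HeT-A reads, and HeT-A alone had 80.6, 82.8, 63.7, 53.4 and 53.2 CPM. Its fall is thus part of the level course outside genes, and the contrast with introns was not tested without HeT-A.

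Host genes of the intronic insertions were also above no HS, but this was not particular to introns. For insertions outside genes with at least 30 reads, the median log2 change of the nearest gene was 0.27, 0.47, 0.625 and 0.46 at the 4 times. Over the intronic insertions with at least 30 reads whose gene could be compared, the median log2 change was 0.50, 0.46, 0.53 and 0.38 for the insertions and 0.40, 0.30, 0.54 and 0.25 for their genes at the 4 times. An insertion low in no HS passed that minimum through the later library, which raises the insertion medians. The sums over all intronic insertions, with no minimum, gave 0.30, 0.28, 0.37 and 0.18. The median over all features with as many reads was 0.02, 0.00, 0.02 and 0.01. From one insertion to the next the changes were only loosely related, as Pearson's r across insertions between the log2 changes of insertion and gene was 0.15, -0.06, 0.17 and -0.12 at the 4 times (n = 24, 18, 24 and 17). These insertions share libraries and some share a gene, so the values are a description. A list of 268 features, chosen by name as rRNA, snRNA, snoRNA or similar RNA, was also lowest in no HS. It summed to 1351, 2866, 3550, 5177 and 4002 CPM. Most of this was mitochondrial rRNA, with 1189, 2632, 3119, 4879 and 3764 CPM, and whether that RNA lacks a polyA tail was not tested. The snRNA and snoRNA features had 125, 183, 311, 227 and 178.5 CPM, highest at 16 h PHS. The part of unspliced or non-polyA RNA in the intronic values was not tested.

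By chromosome, 692 listed insertions and 27.9% of the insertion reads were on 2R, and chromosome 4, the smallest autosome, held 281 insertions and 20.0% of the reads, most of them in the HeT-A array. At 8 h PHS insertions on 2L were higher by a log2 ratio of 0.63 (0.48 to 0.79), and those on the other chromosomes by 0.12 to 0.57. At 32 h PHS the ratios on 2R, 3L, 4 and X lay between -0.11 and 0.08 with intervals that included equal levels, while 2L (0.20, 0.04 to 0.36) and 3R (0.26, 0.03 to 0.49) were above no HS, as was the Y chromosome.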

How the data were processed

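Per the methods of the study, reads were trimmed with Trim Galore 0.4.3, mapped with STAR 2.5.3 to BDGP6.46, kept with SAMtools 1.4.1 when properly paired and of mapping quality 10 or more, and counted with featureCounts of Subread 1.5.0. The strand setting and the handling of reads that overlap more than 1 feature are not given in the sources used here, so an insertion and the gene around it may share or lose reads. The deposited values are log2 of CPM + 1 after TMM normalization by the authors (edgeR 3.34.0, R 4.1.0). The log2 was undone and the added 1 taken off to give CPM, and in each library 100% of values were whole multiples of 1 step within 0.1 reads, which gave the reads. All 5 columns were matched to a sample by name. A count test could not be run with 1 library per time, so calls are of size only.

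Named insertions were the R1-type ones with at least 30 reads over the 5 libraries, those past 2-fold on log2(CPM + 1), the 10 with the highest mean CPM, and at each time the 5 largest rises and falls by ratio with at least 30 reads in the 2 libraries. Named families were the rDNA and telomeric ones, some fixed by name, the 10 with the largest sums and those past 2-fold. The members and all lists were chosen with earlier results of these data known. Positions, and whether an insertion overlaps an exon, lies in an intron or is outside genes, came from Ensembl 115 (BDGP6.54). Of 2600 insertions 1 had another name there. Intervals are 95% Clopper-Pearson. Scripts were tested on simulated data. Python 3.11.15, numpy 2.4.6, pandas 2.3.3, scipy 1.17.1 and matplotlib 3.10.9 were used.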

Additional observations from a re-analysis of the deposited data

How the results depend on the processing

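With 1 library per time nothing could be repeated without a replicate, and no paired analysis was possible because no group holds more than 1 library. No HS is the shallowest library, enters every comparison and holds few reads of most insertions, so counts of insertions past 2-fold follow the settings closely. Counts are given as higher and then lower. The shares of all features under the changed settings were not computed, so those counts show only how the calls depend on the setting. On the log2(CPM + 1) scale the counts were 1 and 0 at 8 h PHS, 2 and 1 at 16 h PHS, 1 and 4 at 24 h PHS and 1 and 4 at 32 h PHS. A pseudocount of 0.1 gave 225 and 60, 177 and 64, 276 and 76, and 198 and 87, and a pseudocount of 5 gave 0 in each. A threshold of 1.5-fold gave 16 and 5, 14 and 10, 23 and 13, and 17 and 17, and a threshold of 3-fold gave 0 at 16, 24 and 32 h PHS in both directions. With each library rescaled to a total of 1000000, 2 were higher at 8 h PHS and 1 at 16 h PHS. With the 2 earliest libraries averaged as a baseline, 0 were higher at 16, 24 and 32 h PHS and 0 lower at 16 h PHS.

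By the ratio of CPM the counts with at least 30 reads were 11 and 1, 7 and 3, 18 and 4, and 9 and 8. With at least 10 reads they were 48 and 13, 47 and 17, 73 and 21, and 51 and 32. With at least 100 reads they were 4 and 0 at 8 h PHS, 0 and 2 at 16 h PHS, 1 and 2 at 24 h PHS, and 1 and 5 at 32 h PHS. The mean baseline gave 1 and 3, 7 and 5, and 3 and 8 at 16, 24 and 32 h PHS. With 8 h PHS as the baseline, added after seeing the data, 2 and 5, 6 and 12, and 4 and 17 were past 2-fold. The cause of these shifts was not tested, beyond the changed minimum, threshold or baseline itself.

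Against 8 h PHS the log2 ratio of the R1A1 sum was -0.48 at 16 h PHS, -0.46 at 24 h PHS and -0.24 at 32 h PHS, below that library where it was above no HS. Without its best-covered insertion the HeT-A sum, an alternative added later, had log2 ratios of -0.55, -0.79 and -0.76 at 16, 24 and 32 h PHS. Without the 10 insertions with the most reads the share of reads was 0.0246% in no HS and 0.0317%, 0.0288%, 0.0303% and 0.0289% later. Among 38 log2 ratios of named insertions past 2-fold, the mean baseline turned the direction of 3, all of R1A1{}6563 (-0.16 at 16 h PHS, -0.74 at 24 h PHS and -0.67 at 32 h PHS), and rescaling turned 0 of 47. No R1 or R2 sum was computed, since 0 members have those names.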

Other observations

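On the Y chromosome, whose genes are known to be transcribed in spermatocytes, 28 of 75 annotated insertions were listed, with 243 reads in all. They summed to 1.46 CPM in no HS, 2.17 at 8 h PHS, 2.18 at 16 h PHS, 1.65 at 24 h PHS and 3.25 at 32 h PHS. The log2 ratio was 1.15 (0.34 to 2.06) at 32 h PHS, on 15 and 77 reads, and the intervals at the earlier times included equal levels. The best-covered copy, 1360{}6435, had 2, 24, 20, 17 and 18 reads, and 1360{}6434 had 0, 6, 8, 9 and 15.

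Within lncRNA:flam, the transcript of the flamenco piRNA cluster that acts in somatic gonad cells (X, 21631891 to 21790731), 10 of 47 annotated insertions were listed, with 84 reads. They summed to 0.682, 0.784, 0.759, 0.700 and 0.844 CPM, and the transcript itself to 0.0844 to 0.237 CPM.

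The LTR family gypsy12, looked at after its values were seen, was above no HS at 8 h PHS and below it later, with 3.80, 5.86, 3.18, 2.17 and 2.07 CPM. Its log2 ratio was 0.63 (0.11 to 1.17) at 8 h PHS and -0.88 (-1.51 to -0.23) at 32 h PHS. The family had 39, 157, 67, 62 and 49 reads, of which a single copy, gypsy12{}2629, held 20, 128, 48, 34 and 24. The higher family sum at 8 h PHS thus rested mainly on that copy.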
